A study of Homo sapiens with 16 samples.

Results

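The set described here holds 43 genes of the interferon response and of the cGAS-STING pathway, out of 60649 genes in the deposited count table, measured in mesenchymal stem cells (MSCs) that were made senescent with mitomycin C (MmC), given growth differentiation factor 11 (GDF11), or both. The genes were listed by name, with earlier results of these data known, and no threshold on a measured value was used. Each name was matched to the Ensembl identifier of the table through the GENCODE annotation. All 43 genes matched 1 identifier, and all 43 were among the 19103 genes left after the filter on low counts.

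The enzyme cGAS, the product of CGAS, recognises DNA in the cytosol and makes a cyclic dinucleotide that activates STING, the product of STING1, after which the kinase TBK1 phosphorylates the transcription factor IRF3 and type I interferon genes can be switched on. Interferons bind receptors that signal through JAK kinases to a complex that holds STAT2 and IRF9 and binds the interferon-stimulated response element in the promoters of interferon-stimulated genes. The products of these genes act on viral RNA, viral assembly and ubiquitin-like modification of proteins, and DNA damage and cellular senescence are known settings in which the pathway can be active.

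Poly(A)-enriched RNA of ASC52telo, an MSC line from adipose tissue that was made immortal with the telomerase gene TERT, was sequenced in 16 libraries, 4 biological replicates from each of 4 groups. MmC-/GDF11- cells received neither agent and are called young, MmC-/GDF11+ cells received GDF11 at 10 ng/mL alone, MmC+/GDF11- cells were exposed for 18 h to 1.5 µg/mL MmC, which alkylates DNA, and are called senescent, and MmC+/GDF11+ cells received MmC and then GDF11. GDF11 was present over the 10 days after the MmC exposure, at the end of which RNA of all groups was taken. All groups share 1 cell line with the same immortalization, grown in serum, and all libraries carry the same sequencing run label, so the tests measure the spread between replicates of this line only.

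Libraries held 71275337 to 144204979 counts. Levels are given as CPM, counts brought to a common library size with TMM scaling, and the 4 values of a group are always listed in the order of replicates 1 to 4. Changes are given as log2 fold changes ± their standard error, and tested by quasi-likelihood in edgeR, with p adjusted after Benjamini-Hochberg over all tested genes, and a gene is called changed at an adjusted p under 0.05. The 5 listed MSC surface markers together stood at 4735 to 6428 CPM in the 16 libraries. The 7 leukocyte markers summed to 1.80 to 2.91 CPM in the libraries without MmC and to 3.71 to 5.82 CPM in those with MmC, and the 5 markers of plasmacytoid dendritic cells summed to at most 0.140 CPM, with IL3RA and LILRA4 at 0 in every library. The 4 endothelial markers summed to 7.82 to 11.3 CPM without and 8.44 to 21.8 CPM with MmC. Of these, PECAM1 and VWF rose and CDH5 fell in both comparisons, and KDR rose without GDF11 and did not pass with it. The 3 adipocyte markers summed to 1.16 to 2.49 CPM without and 0.466 to 1.31 CPM with MmC, and the 4 epithelial markers to 102 to 165 CPM without and 43.4 to 78.8 CPM with MmC. Of the epithelial markers, KRT8 and KRT18 fell in both comparisons, CDH1 passed in neither and EPCAM was below the filter. The leukocyte sums were higher and the epithelial sums lower in all MmC+ libraries, the endothelial and adipocyte sums overlapped, and their part in the results was not tested. In such bulk RNA, a change in the number of cells that express a gene and a change in RNA per cell cannot be told apart.

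The first comparison asked how the set differed between senescent and young MSCs. In cells without GDF11, 27 of the 43 genes rose, 2 fell and 14 did not pass the test. Over all tested genes the share called higher was 22.9% and the share called lower 22.4%. The median log2 fold change was 0.84 over the 43 genes and -0.01 over all tested genes. Of the 43 genes, 21 had every MmC+/GDF11- library above every MmC-/GDF11- library, and 2, STING1 and IFITM2, had every one below. The background for such separation was 19.1% of all tested genes for higher and 18.2% for lower.

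In cells with GDF11, 22 of the 43 genes rose with MmC, 2 fell and 19 did not pass, against 23.4% of all tested genes called higher and 23.3% called lower. The median log2 fold change was 0.59. Here 7 of the 43 genes had all MmC+ libraries above all MmC- libraries and 2 had all below. Both are smaller shares than the 20.2% and 21.2% of all tested genes. The 22 genes that rose with GDF11 had all risen without it, and STING1 and IFITM2 fell in both. The 5 genes that passed only without GDF11 were IRF7, IFIT1, IFIT2, IFI27 and SAMD9, and the test of the difference between the MmC effects with and without GDF11 was passed by none of the 43 genes. Among the 34 members that are products or effectors of the interferon response rather than sensors or transcription factors, 24 rose, 1 fell and 9 did not pass without GDF11, and 20 rose, 1 fell and 13 did not pass with it.

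The size of these counts depended on which libraries were used. Leaving out replicate number 3 from all groups left 17 genes called for MmC without GDF11, against 29 with all libraries. With GDF11, 24 genes were called with all libraries, 14 without replicate number 2, 13 without number 3, 9 without number 4 and 34 without number 1. When 1 library was left out at a time the count lay between 20 and 32 without GDF11 and between 16 and 30 with GDF11. STING1, IFITM2, IFIH1, OAS1, OAS2, OASL, BST2, HERC5, HERC6, IFI6, RSAD2, TRIM22, IFIT3 and USP18 stayed past the threshold in both comparisons whichever single library of the 16 was left out. Some were lost with a whole replicate number. With GDF11 and without number 4 these were IFIT3 (adjusted p = 0.0663), OAS1 (0.0631), OAS2 (0.0640), RSAD2 (0.0984), HERC6 (0.0670) and USP18 (0.125). USP18 was also lost there without number 2 (0.0730) or 3 (0.0884). In cells without GDF11 it was lost without number 3 (0.0580). The STING1 values are given beside that gene.

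**Figure D1:**
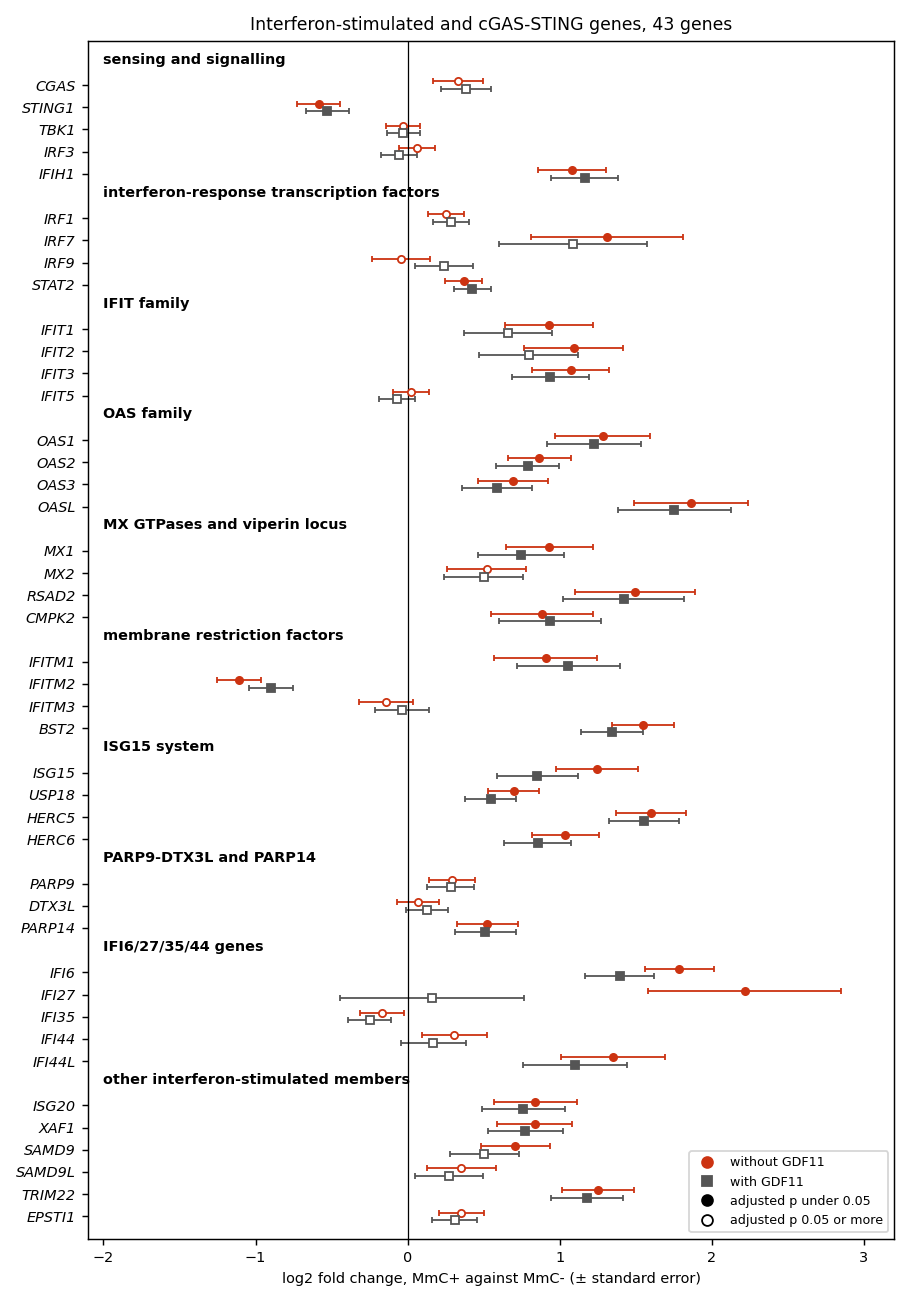
Log2 fold change of each of the 43 genes between MmC+ and MmC- libraries, without GDF11 (circles) and with GDF11 (squares), in 10 groups by role. Bars are 1 standard error of the fitted value from 4 libraries against 4, and filled marks have an adjusted p under 0.05. Most marks lie right of 0, and STING1 and IFITM2 are the filled marks on the left.

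Promoter sequences are shown because the letters of 1 binding element recur in many of them. Most genes were listed by name as interferon-stimulated, a class described above by this element. A high share of the letters among them therefore follows from the choice and is no independent observation. RefSeq promoter windows (GRCh38.p14, from 250 bases before to 50 bases after a start) were available for 32 of the 43 genes. The core letters of the interferon-stimulated response element, GAAANNGAAA on either strand (TTTCNNTTTC on the other), stood in 20 of the 32 windows (62.5%), in 27 of 74 windows (36.5%) of a wider list of interferon and nucleic acid sensing genes, and in 3.65% of all 27305 windows. The letters TTCNNNGAA of the gamma-activated site stood in 9 of the 32 windows (28.1%) and in 7.88% of all windows, and matches of both motifs may overlap. Of the 20 genes with the GAAANNGAAA letters, 15 rose with MmC without GDF11 and 12 rose with GDF11, with median log2 fold changes of 0.92 and 0.70. Of the 12 genes whose window lacked them, 6 rose in each comparison, with medians of 0.36 and 0.35. These include the signalling and transcription factor genes TBK1, IRF1, IRF9 and STAT2, so the sets with and without the letters differ in role too. STING1 and IFITM2, which fell, had no window and enter neither set. Whether the letters go with the rise was not tested. A match of letters is a description of the window and not a site shown to be bound.

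Stretches around these letters are given below for 5 genes that rose with MmC and 3 that hold the letters and did not pass the test, each 5′ to 3′ on the strand of the gene, with the matched letters in capitals.
ISG15: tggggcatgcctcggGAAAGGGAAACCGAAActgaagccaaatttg
IFIT3: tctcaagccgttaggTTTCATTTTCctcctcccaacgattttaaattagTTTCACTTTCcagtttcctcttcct
IFI6: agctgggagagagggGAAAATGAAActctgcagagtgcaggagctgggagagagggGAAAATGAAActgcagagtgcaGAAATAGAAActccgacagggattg
BST2: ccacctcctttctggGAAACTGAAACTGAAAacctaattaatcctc
HERC5: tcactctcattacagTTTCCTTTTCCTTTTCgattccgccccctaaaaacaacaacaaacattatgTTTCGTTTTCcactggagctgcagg
IFIT5: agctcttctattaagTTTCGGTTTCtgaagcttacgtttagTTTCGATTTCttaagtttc
IFITM3: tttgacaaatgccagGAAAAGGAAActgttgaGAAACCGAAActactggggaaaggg
IFI44: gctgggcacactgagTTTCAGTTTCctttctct
The ISG15 stretch lies at chr1:1013369-1013414 on the plus strand and holds 2 overlapping matches. They start 113 and 107 bases before the RefSeq start of the window, which lies inside the longer GENCODE span of ISG15 given below. The IFIT3 stretch (chr10:89327826-89327899, plus strand) holds 2 matches, the IFI6 stretch (chr1:27672261-27672363, minus strand) 3, the BST2 stretch (chr19:17405730-17405775, minus strand) 2 overlapping ones and the HERC5 stretch (chr4:88456979-88457069, plus strand) 3. IFIT5 (chr10:89414508-89414567, plus strand) and IFITM3 (chr11:320871-320927, minus strand) hold 2 each, and IFI44 (chr1:78649756-78649788, plus strand) holds 1.

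Among the sensors and signalling proteins, 1 gene rose, 1 fell and 3 did not pass the test in each MmC comparison. The shares of 20% higher and 20% lower are near those of all tested genes. These were 22.9% and 22.4% without GDF11 and 23.4% and 23.3% with it. Positions of genes are those of GENCODE v44 on hg38. CGAS (ENSG00000164430, chr6:73413515-73452297) stood at 5.47, 5.22, 6.32 and 5.88 CPM in MmC-/GDF11- and at 4.84, 8.27, 8.25 and 7.401 CPM in MmC+/GDF11-. With GDF11 it stood at 6.13, 5.78, 4.82 and 5.86 CPM in MmC- and at 5.58, 8.52, 8.16 and 7.18 CPM in MmC+ libraries. Replicate 1 was the lowest of the senescent libraries in both arms and overlapped the young ones, and the other senescent libraries lay above all young ones. The log2 fold change of CGAS was 0.33 ± 0.17 (adjusted p = 0.116) without and 0.38 ± 0.17 (adjusted p = 0.0687) with GDF11, short of the threshold. Without MmC+/GDF11- replicate 1 the first adjusted p was 0.0111, and the second fell to 0.0235 without that library and to 0.0196 without MmC+/GDF11+ replicate 1.

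STING1 (ENSG00000184584, chr5:139475533-139482935), the adaptor that cGAS activates, moved the other way. Its level was 108, 108, 94.9 and 88.9 CPM in MmC-/GDF11- and 85.7, 59.03, 57.8 and 63.8 CPM in MmC+/GDF11-. In the GDF11 arms it was 104, 94.2, 98.5 and 88.4 CPM in MmC- and 85.4, 58.8, 54.3 and 68.7 CPM in MmC+ libraries. All 8 senescent libraries lay below all 8 young ones, with replicate 1 again set off from the others, here on the high side. STING1 changed by -0.59 ± 0.14 (adjusted p = 0.00342) without GDF11, 0.667 times the young level, and by -0.53 ± 0.14 (adjusted p = 0.00655) with GDF11. Leaving replicate number 2 out of all groups gave adjusted p-values of 0.0518 and 0.0538, and leaving out number 3 gave 0.03299 and 0.0874. Per kilobase of exon it was the most abundant of the sensing genes in young cells, at 20.8 CPM per kb against 1.37 for CGAS.

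IFIH1, which encodes MDA5, a sensor of long RNA duplexes in the cytosol, was the sensing gene that rose. It measured 26.8, 17.2, 29.5 and 29.9 CPM in MmC-/GDF11- and 46.3, 46.4, 65.5 and 60.5 CPM in MmC+/GDF11-. With GDF11 the values were 35.2, 21.04, 24.03 and 20.2 CPM without and 40.2, 50.4, 62.2 and 72.4 CPM with MmC. The senescent libraries lay above the young ones in both arms without overlap, and the log2 fold changes were 1.08 ± 0.22 (adjusted p = 0.00103) and 1.16 ± 0.22 (adjusted p = 0.00057996). IRF3, the factor that TBK1 phosphorylates, stood at 47.9, 63.1, 48.6 and 47.1 CPM in MmC-/GDF11- and 47.5, 60.6, 57.95 and 49.3 CPM in MmC+/GDF11-, and, with GDF11, at 50.5, 64.1, 56.04 and 47.6 CPM without MmC and 52.2, 54.8, 54.6 and 48.2 CPM with MmC. The groups overlapped throughout, and the fold changes of IRF3, 0.060 ± 0.12 (adjusted p = 0.705) and -0.056 ± 0.12 (adjusted p = 0.7198), and of TBK1, -0.030 ± 0.11 (adjusted p = 0.845) and -0.028 ± 0.11 (adjusted p = 0.854), were smaller than their standard errors. IRF3 shares 24.7% of its exonic 31-base words, meaning all stretches of that length in its exons, with other genes, most with BCL2L12 on the other strand, and the strand setting of the counting is not given in the sources used here.

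Of the transcription factors of the interferon response, IRF7 and STAT2 rose without GDF11, STAT2 alone passed with GDF11, and IRF1 and IRF9 did not pass in either. IRF7 (ENSG00000185507, chr11:612553-615983), which amplifies type I interferon transcription, was the least abundant gene of the set per length, with 70 counts over the 4 MmC-/GDF11- libraries and 179 over the 4 MmC+/GDF11- libraries. In CPM it stood at 0.2599, 0.166, 0.223 and 0.164 and at 0.284, 0.291, 0.547 and 0.886. With GDF11 it stood at 0.417, 0.349, 0.2301 and 0.123 CPM without and 0.273, 0.6203, 0.314 and 1.15 CPM with MmC. Replicate 4 was the highest senescent library in both arms, and only the arms without GDF11 were apart. The log2 fold change of IRF7 was 1.31 ± 0.50 (adjusted p = 0.0421) without and 1.09 ± 0.49 (adjusted p = 0.0775) with GDF11. Its call without GDF11 was lost with the replicate number as a block (adjusted p = 0.0562) and without any of 6 single libraries, up to an adjusted p of 0.166 without MmC+/GDF11- replicate 4. It was also lost with limma-voom (0.0863), with no filter on low counts (0.0693), and without replicate number 2 (0.111), 3 (0.131) or 4 (0.142). Of the exonic 31-base words of IRF7, 98.7% also stand on alternate contigs of the genome build.

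STAT2, the subunit of the interferon-activated complex that carries its transactivation domain, measured 132, 96.04, 105 and 98.4 CPM in MmC-/GDF11- and 148, 134, 149.6 and 126 CPM in MmC+/GDF11-. With GDF11 it measured 123, 105, 97.5 and 82.1 CPM without and 136, 129, 147 and 135 CPM with MmC. Replicate 1 was the highest young library in both arms and, without GDF11, reached into the senescent range. The changes were 0.37 ± 0.12 (adjusted p = 0.02099) and 0.42 ± 0.12 (adjusted p = 0.00943), and the first adjusted p was 0.0614 without MmC-/GDF11- replicate 2, 0.05998 without MmC+/GDF11- replicate 3 and 0.0558 without MmC-/GDF11- replicate 4. The first STAT2 call was also lost without replicate number 2 (0.116) or 3 (0.144) in all groups. The second was lost without number 3 (0.0944) or 4 (0.0507). IRF1, which also binds such elements, had log2 fold changes of 0.25 ± 0.12 (adjusted p = 0.0916) and 0.28 ± 0.12 (adjusted p = 0.0597), and its adjusted p was 0.0279 and 0.0145 with the replicate number as a block. Of 27 alternative settings, 20 of which leave libraries out, IRF1 passed under 3 without GDF11 and under 11 with it, among them RLE scaling (0.0426) and DESeq2 (0.0391) with GDF11. IRF9, the DNA-binding partner of STAT2, had -0.043 ± 0.19 (adjusted p = 0.873) and 0.24 ± 0.19 (adjusted p = 0.328). IRF1 and IRF9 share 28.000% and 26.6% of their exonic words with other genes, chiefly ones that overlap them.

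The IFIT proteins bind viral RNA that lacks the host cap modification, and their genes form a cluster on chromosome 10. IFIT1, IFIT2 and IFIT3 rose without GDF11 and IFIT3 alone passed with GDF11, while IFIT5, in the same cluster, did not pass in either. IFIT3 (ENSG00000119917, chr10:89327307-89377473) was the most abundant per length and stood at 184, 167, 222 and 193 CPM in MmC-/GDF11- and at 414, 275, 489.8 and 433 CPM in MmC+/GDF11-. In the GDF11 arms it stood at 368, 175, 239 and 130.4 CPM without and 399.6, 388, 433 and 528 CPM with MmC. The senescent libraries lay above the young ones in both arms, and the MmC-/GDF11+ values ran from replicate 4 at the bottom to replicate 1 close to the lowest senescent library. Log2 fold changes of IFIT3 were 1.07 ± 0.25 (adjusted p = 0.00278) and 0.94 ± 0.25 (adjusted p = 0.00639).

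IFIT1 measured 114, 106, 145 and 119 CPM in MmC-/GDF11- and 229, 151, 298 and 245 CPM in MmC+/GDF11-, and, with GDF11, 257, 129, 157 and 74.5 CPM without MmC and 201, 207, 265 and 301 CPM with MmC. IFIT2 measured 41.997, 30.6, 45.6 and 36.3 CPM in MmC-/GDF11- and 116, 47.5, 85.8 and 80.4 CPM in MmC+/GDF11-, and, with GDF11, 81.7, 40.8, 42.1 and 25.6 CPM without MmC and 64.5, 56.96, 103 and 105 CPM with MmC. Both were apart between the arms without GDF11 and overlapped with GDF11, where replicate 1 was the highest young library. The changes of IFIT1 were 0.93 ± 0.29 (adjusted p = 0.0167) and 0.66 ± 0.29 (adjusted p = 0.0735), and those of IFIT2 1.09 ± 0.33 (adjusted p = 0.0131) and 0.80 ± 0.32 (adjusted p = 0.0557). The IFIT1 call without GDF11 was lost without MmC+/GDF11- replicate 3 (adjusted p = 0.0563), and with GDF11 IFIT1 passed under 4 and IFIT2 under 11 of the 27 alternatives, DESeq2 (0.0376 and 0.0233), limma-voom (0.0441 and 0.0384) and leaving out MmC-/GDF11+ replicate 1 (0.00418 and 0.00486) among them. Leaving replicate number 3 out of all groups lost the calls of IFIT1 (0.0858) and IFIT2 (0.0549) without GDF11. IFIT5 differed by 0.024 ± 0.12 (adjusted p = 0.886) and -0.068 ± 0.12 (adjusted p = 0.666), and its promoter window holds 3 matches to the response element, 2 of them in the stretch shown.

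All 4 genes of the OAS family rose in both comparisons. OAS1, OAS2 and OAS3 make oligoadenylates that activate RNase L on sensing RNA duplexes, and OASL lacks this activity and acts on RIG-I signalling. OASL (ENSG00000135114, chr12:121017763-121039246) measured 7.47, 9.74, 14.1 and 14.4 CPM in MmC-/GDF11- and 23.7, 38.1, 57.6 and 47.1 CPM in MmC+/GDF11-. With GDF11 it measured 18.6, 12.2, 13.6 and 7.43 CPM without and 17.8, 42.2, 52.96 and 61.5 CPM with MmC. The groups did not overlap without GDF11, and with GDF11 MmC+ replicate 1 fell among the young values. The log2 fold changes of OASL, 1.87 ± 0.38 (adjusted p = 0.000972) and 1.75 ± 0.37 (adjusted p = 0.00144), were 3.64-fold and 3.37-fold.

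OAS1 stood at 49.9, 49.3, 70.5 and 68.98 CPM in MmC-/GDF11- and 82.7, 135, 184 and 179 CPM in MmC+/GDF11-, and, with GDF11, at 90.8, 51.2, 72.5 and 43.99 CPM without MmC and 78.6, 145, 166 and 216 CPM with MmC. OAS2, the most abundant of the family per length, stood at 86.2, 74.7, 111 and 114 CPM in MmC-/GDF11- and 153, 163, 209 and 178 CPM in MmC+/GDF11-, and, with GDF11, at 154, 88.8, 104 and 73.3 CPM without MmC and 138, 177, 192 and 220.1 CPM with MmC. For both genes MmC-/GDF11+ replicate 1 exceeded MmC+/GDF11+ replicate 1, and the arms without GDF11 were apart. The changes were 1.28 ± 0.31 (adjusted p = 0.003604) and 1.23 ± 0.31 (adjusted p = 0.00462) for OAS1, and 0.86 ± 0.21 (adjusted p = 0.00316) and 0.79 ± 0.21 (adjusted p = 0.00546) for OAS2. OAS3 changed by 0.69 ± 0.23 (adjusted p = 0.0229) and 0.59 ± 0.23 (adjusted p = 0.0476). The OAS3 calls were lost without any of 4 single libraries in the first comparison, up to an adjusted p of 0.0714 without MmC-/GDF11- replicate 2, and without any of 10 in the second, up to 0.156 without MmC+/GDF11+ replicate 4. In all they were lost under 7 and 16 of the 27 alternatives. The second was lost with limma-voom (0.0654) and with the replicate number as a block (0.0511).

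MX1 and MX2 encode dynamin-like GTPases that block viral nucleocapsids and neighbour each other on chromosome 21, and RSAD2 encodes viperin, which makes a chain-terminating nucleotide from the product of its neighbour CMPK2. MX1, RSAD2 and CMPK2 rose in both comparisons and MX2 passed in neither. RSAD2 (ENSG00000134321, chr2:6865557-6898239) measured 7.26, 7.71, 17.4 and 15.3 CPM in MmC-/GDF11- and 24.9, 23.9, 44.9 and 40.4 CPM in MmC+/GDF11-. With GDF11 it measured 17.1, 13.7, 14.7 and 7.07 CPM without and 15.2, 29.8, 39.5 and 55.9 CPM with MmC. Senescent libraries 3 and 4 were the highest in both arms, and MmC+/GDF11+ replicate 1 overlapped the young values. RSAD2 changed by 1.49 ± 0.40 (adjusted p = 0.00644) and 1.42 ± 0.40 (adjusted p = 0.00846). Its head-to-head neighbour on the other strand, CMPK2, overlaps it over 351 exonic bases. CMPK2 stood at 4.16, 4.41, 9.02 and 10.2 CPM in MmC-/GDF11- and 8.82, 10.8, 16.8 and 14.7 CPM in MmC+/GDF11-, and, with GDF11, at 9.74, 6.53, 6.99 and 5.07 CPM without MmC and 7.48, 12.6, 14.9 and 19.2 CPM with MmC. The changes of CMPK2, whose groups overlapped, were 0.88 ± 0.33 (adjusted p = 0.04303) and 0.94 ± 0.34 (adjusted p = 0.0324), and they were lost without any of 7 and 5 single libraries, up to 0.123 without MmC+/GDF11- replicate 3 and 0.105 without MmC+/GDF11+ replicate 4.

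MX1 stood at 42.01, 34.7, 58.1 and 56.7 CPM in MmC-/GDF11- and 79.6, 78.3, 114 and 93.4 CPM in MmC+/GDF11-, and, with GDF11, at 94.1, 44.3, 52.3 and 31.01 CPM without MmC and 65.6, 87.7, 98.1 and 119.8 CPM with MmC. MX2 stood at 68.5, 52.7, 84.3 and 67.6 CPM in MmC-/GDF11- and 81.98, 79.4, 125 and 105 CPM in MmC+/GDF11-, and, with GDF11, at 115, 55.4, 79.9 and 45.8 CPM without MmC and 75.2, 94.6, 113 and 136 CPM with MmC. MX1 was apart between the arms without GDF11 and overlapped with it, and MX2 overlapped in both. The log2 fold changes were 0.93 ± 0.28 (adjusted p = 0.0148) and 0.74 ± 0.28 (adjusted p = 0.0427) for MX1, and 0.52 ± 0.26 (adjusted p = 0.118) and 0.50 ± 0.26 (adjusted p = 0.1296) for MX2. The MX1 call with GDF11 was lost without any of 7 single libraries, up to 0.123 without MmC+/GDF11+ replicate 4, and MX2 passed with GDF11 without MmC-/GDF11+ replicate 1 (0.0119). In all, MX1 was lost under 13 of the 27 alternatives with GDF11, up to 0.287, and under 3 without GDF11, up to 0.0750.

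The membrane restriction factors moved in both directions, with 2 genes higher and 1 lower in each comparison. These are 50% and 25% of the 4 genes. Over all tested genes the shares were 22.9% and 22.4% without GDF11 and 23.4% and 23.3% with it. BST2 (ENSG00000130303, chr19:17402939-17405630) encodes tetherin, which holds budding virions at the cell surface. It measured 51.9, 39.7, 44.2 and 34.5 CPM in MmC-/GDF11- and 102, 127, 134 and 135 CPM in MmC+/GDF11-. In the GDF11 arms it measured 58.3, 50.5, 53.3 and 28.3 CPM without and 109.9, 109, 103 and 161 CPM with MmC. Every senescent library lay above every young one, and the change was 1.55 ± 0.20 (adjusted p = 2.29e-05) without and 1.34 ± 0.20 (adjusted p = 7.64e-05) with GDF11, or 2.92-fold and 2.54-fold.

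The IFITM proteins restrict the entry of enveloped viruses and their genes adjoin each other on chromosome 11. IFITM2 (ENSG00000185201, chr11:303655-309397) stood at 174, 185, 161 and 144 CPM in MmC-/GDF11- and 87.3, 64.6, 73.8 and 82.6 CPM in MmC+/GDF11-, and, with GDF11, at 151, 143, 175 and 145 CPM without MmC and 87.98, 71.04, 63.8 and 106 CPM with MmC. All senescent libraries lay below all young ones, and the change was -1.11 ± 0.14 (adjusted p = 1.97e-05) without and -0.90 ± 0.14 (adjusted p = 0.000121) with GDF11. IFITM1 (ENSG00000185885, chr11:310041-315272) stood at 74.3, 70.4, 101 and 79.4 CPM in MmC-/GDF11- and 98.6, 115, 208 and 186 CPM in MmC+/GDF11-, and, with GDF11, at 107, 39.1, 114 and 68.4 CPM without MmC and 107, 142, 160.4 and 274 CPM with MmC. Its groups overlapped in both arms, and it changed by 0.91 ± 0.34 (adjusted p = 0.0402) and 1.06 ± 0.34 (adjusted p = 0.0191), calls that were lost without any of 5 and 2 single libraries, up to 0.125 without MmC+/GDF11- replicate 3 and 0.0828 without MmC+/GDF11+ replicate 4. IFITM3, the most abundant of them per length, stood at 893, 853, 742 and 602 CPM in MmC-/GDF11- and 758, 620.1, 660.3 and 761 CPM in MmC+/GDF11-, and, with GDF11, at 811, 711, 862 and 599.8 CPM without MmC and 796, 611, 535 and 963 CPM with MmC. The groups overlapped and the differences of IFITM3, -0.14 ± 0.18 (adjusted p = 0.537) and -0.038 ± 0.18 (adjusted p = 0.875), were smaller than their standard errors. Since 42.2%, 31.3% and 26.4% of the exonic 31-base words of IFITM1, IFITM2 and IFITM3 also occur in other genes, for IFITM2 most often in IFITM3, the split of reads among these genes is uncertain.

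ISG15 is a ubiquitin-like protein that interferon induces, HERC5 is its main ligase in human cells, HERC6 is the related neighbour of HERC5 on chromosome 4, and USP18 removes ISG15 and dampens the type I receptor. All 4 genes rose in both comparisons. ISG15 (ENSG00000187608, chr1:1001138-1014540) measured 95.8, 91.1, 114 and 95.1 CPM in MmC-/GDF11- and 145, 258, 313 and 221 CPM in MmC+/GDF11-. With GDF11 it measured 179, 123, 138 and 68.5 CPM without and 155, 221, 244 and 298 CPM with MmC. The arms without GDF11 were apart, and with GDF11 the young replicate 1 exceeded the senescent replicate 1. ISG15 changed by 1.24 ± 0.27 (adjusted p = 0.00173), or 2.37-fold, without and by 0.85 ± 0.27 (adjusted p = 0.0171), or 1.81-fold, with GDF11, and the second call was lost without MmC+/GDF11+ replicate 4 (0.0559). That call was also lost without replicate number 2 (0.0861), 3 (0.0658) or 4 (0.144) in all groups, and with no filter on low counts (0.0516).

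HERC5 was low, with 671 counts over the 4 MmC-/GDF11- libraries and 2105 over the 4 MmC+/GDF11- libraries. It stood at 2.39, 1.37, 1.9005 and 2.02 CPM in MmC-/GDF11- and 6.34, 5.24, 6.31 and 5.34 CPM in MmC+/GDF11-, and, with GDF11, at 2.88, 2.11, 1.65 and 1.15 CPM without MmC and 4.99, 5.09, 6.01 and 6.71 CPM with MmC. The senescent libraries were apart from the young ones in both arms, at 1.598 ± 0.23 (adjusted p = 4.79e-05) and 1.56 ± 0.23 (adjusted p = 6.00e-05). HERC6 stood at 57.7, 43.95, 71.7 and 64.7 CPM in MmC-/GDF11- and 94.7, 113, 152 and 129 CPM in MmC+/GDF11-, and, with GDF11, at 103, 57.7, 66.9 and 47.4 CPM without MmC and 98.1, 122, 128 and 150.1 CPM with MmC. It changed by 1.04 ± 0.22 (adjusted p = 0.00138) and 0.86 ± 0.22 (adjusted p = 0.00496), with overlap between the GDF11 arms. USP18, which shares 27.5% of its exonic words with other genes, changed by 0.70 ± 0.17 (adjusted p = 0.003302) and 0.55 ± 0.17 (adjusted p = 0.0144).

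PARP9 and DTX3L form an ADP-ribosyltransferase and ubiquitin ligase complex and are divergent neighbours on chromosome 3, and PARP14 lies near them. PARP14 rose in both comparisons, and the other two passed in neither. PARP14 stood at 95.8, 56.6, 101 and 107 CPM in MmC-/GDF11- and 123, 105, 143 and 148 CPM in MmC+/GDF11-, and, with GDF11, at 121, 77.2, 85.5 and 88.7 CPM without MmC and 108, 114, 137 and 172 CPM with MmC. DTX3L stood at 87.9, 69.1, 87.2 and 98.5 CPM in MmC-/GDF11- and 88.7, 79.997, 100.3 and 90.2 CPM in MmC+/GDF11-, and, with GDF11, at 109.7, 76.3, 76.8 and 74.5 CPM without MmC and 78.6, 92.8, 91.98 and 105 CPM with MmC. All 3 genes overlapped between the groups, and MmC-/GDF11+ replicate 1 was the highest young library for DTX3L. The changes of PARP14 were 0.52 ± 0.20 (adjusted p = 0.0419) and 0.51 ± 0.20 (adjusted p = 0.0454), of PARP9 0.29 ± 0.15 (adjusted p = 0.132) and 0.28 ± 0.15 (adjusted p = 0.141), and of DTX3L 0.068 ± 0.14 (adjusted p = 0.711) and 0.13 ± 0.14 (adjusted p = 0.464). The PARP14 calls were lost without any of 4 and 6 single libraries, up to 0.113 without MmC-/GDF11- replicate 2 and 0.148 without MmC+/GDF11+ replicate 4.

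**Figure D2:**
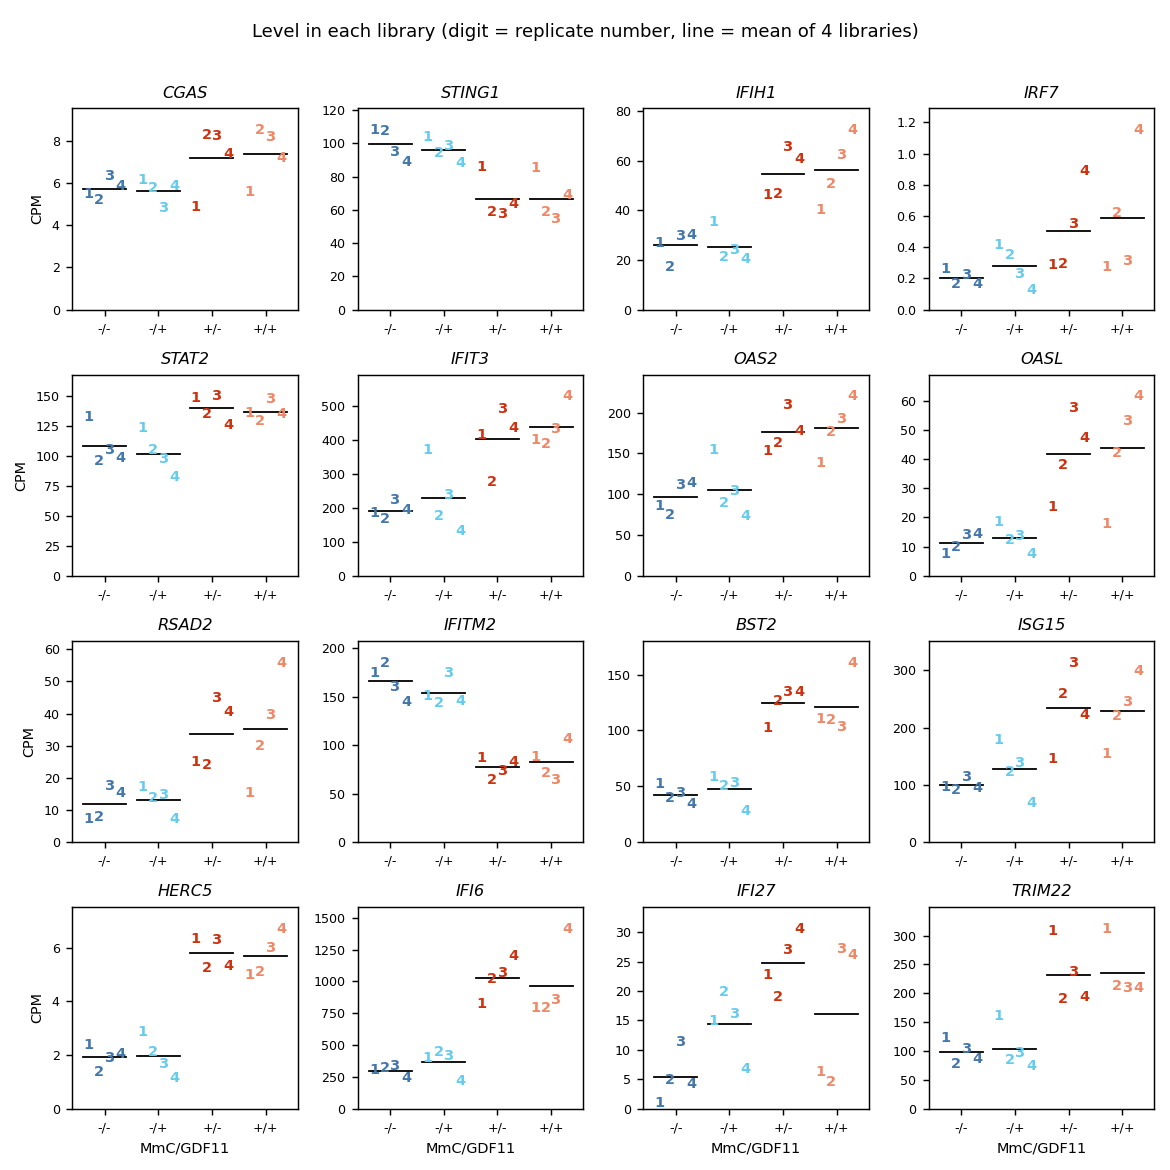
CPM of 16 of the 43 genes in each library, on linear axes from 0. Each digit is a library with its replicate number, groups are given as MmC/GDF11, and the line is the mean of 4 libraries. STING1 and IFITM2 are lower in both MmC+ groups, BST2, HERC5 and IFI6 are higher in both without overlap, and IFI27 is apart between the groups without GDF11 and overlaps between those with it.

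Of the 5 genes named IFI, IFI6, IFI27 and IFI44L rose without GDF11, IFI6 and IFI44L passed with it, and IFI35 and IFI44 passed in neither. IFI6 (ENSG00000126709, chr1:27666064-27672212), a small membrane protein with antiviral and anti-apoptotic roles, was the most abundant gene of the set per length, at 318 CPM per kb in young and 1097 in senescent cells. It measured 306, 315, 333 and 237 CPM in MmC-/GDF11- and 823, 1019, 1068 and 1198 CPM in MmC+/GDF11-. With GDF11 it measured 394, 448, 409.7 and 217 CPM without and 794, 793, 856 and 1414 CPM with MmC. No senescent library reached down to a young one in either arm, and IFI6 changed by 1.79 ± 0.23 (adjusted p = 1.61e-05) and 1.39 ± 0.23 (adjusted p = 0.000133), or 3.45-fold and 2.63-fold.

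IFI27 (ENSG00000165949, chr14:94104836-94116695), a widely used marker of interferon exposure, had the largest fitted rise of the set without GDF11. It stood at 1.03, 4.93, 11.2 and 4.22 CPM in MmC-/GDF11- and 22.8, 19.1, 26.9 and 30.6 CPM in MmC+/GDF11-, apart from each other. With GDF11 it stood at 14.8, 19.8, 16.2 and 6.73 CPM without and 6.304, 4.55, 27.2 and 26.1 CPM with MmC, where senescent replicates 1 and 2 lay below all young ones and replicates 3 and 4 above. The change was 2.22 ± 0.64 (adjusted p = 0.0104) without and 0.16 ± 0.61 (adjusted p = 0.847) with GDF11. The first ran from 1.89 without MmC-/GDF11- replicate 1 to 2.87 without MmC-/GDF11- replicate 3, and its adjusted p was 0.06102 without replicate number 4. The difference between these effects was -2.05 ± 0.87, with an unadjusted p of 0.031997 and an adjusted p of 0.9999. All of its exonic 31-base words (100%) also stand on alternate contigs. IFI44L stood at 59.4, 37.97, 66.7 and 51.6 CPM in MmC-/GDF11- and 76.8, 127, 187 and 159 CPM in MmC+/GDF11-, and, with GDF11, at 105, 54.3, 76.9 and 35.8 CPM without MmC and 82.1, 137, 169 and 196 CPM with MmC. It changed by 1.35 ± 0.34 (adjusted p = 0.00489) and 1.101 ± 0.34 (adjusted p = 0.0154), the second being lost without MmC+/GDF11+ replicate 4 (0.0509). In all, the second IFI44L call was lost under 5 of the 27 alternatives, up to 0.143, and 3 of these leave out a replicate number. Its neighbour on chromosome 1, IFI44, differed by 0.31 ± 0.21 (adjusted p = 0.257) and 0.17 ± 0.21 (adjusted p = 0.543), and IFI35 by -0.17 ± 0.14 (adjusted p = 0.356) and -0.25 ± 0.14 (adjusted p = 0.165).

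Among the remaining 6 genes, ISG20, XAF1, SAMD9 and TRIM22 rose without GDF11, and ISG20, XAF1 and TRIM22 with it. TRIM22 (ENSG00000132274, chr11:5689610-5737089), a ubiquitin ligase with antiviral activity that is also a known p53 target, measured 123, 77.1, 103 and 86.1 CPM in MmC-/GDF11- and 308, 189.8, 238 and 193 CPM in MmC+/GDF11-. With GDF11 it measured 160.2, 84.9, 96.7 and 74.2 CPM without and 312, 212, 209 and 209 CPM with MmC. The senescent libraries lay above the young ones in both arms, and replicate 1 was the highest library in all 4 groups. TRIM22 changed by 1.25 ± 0.24 (adjusted p = 0.000554) and 1.18 ± 0.24 (adjusted p = 0.000872). XAF1, a pro-apoptotic antagonist of XIAP, stood at 53.5, 33.5, 51.9 and 42.2 CPM in MmC-/GDF11- and 84.1, 62.9, 95.8 and 80.04 CPM in MmC+/GDF11-, and, with GDF11, at 80.2, 34.96, 51.6 and 31.1 CPM without MmC and 85.6, 71.6, 85.5 and 95.6 CPM with MmC. It changed by 0.84 ± 0.25 (adjusted p = 0.0117) and 0.77 ± 0.25 (adjusted p = 0.0173), and the second call was lost without MmC-/GDF11+ replicate 2 (0.0556). In all, the second XAF1 call was lost under 4 of the 27 alternatives, up to 0.138, and 3 of these leave out a replicate number. The first XAF1 call was lost without replicate number 3 (0.0722). A gene on the other strand covers 2535 of its exonic bases.

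ISG20, an exonuclease for single-stranded RNA, stood at 4.496, 4.13, 4.31 and 3.499 CPM in MmC-/GDF11- and 4.09, 7.92, 9.61 and 7.76 CPM in MmC+/GDF11-, and, with GDF11, at 4.79, 4.21, 4.72 and 3.31 CPM without MmC and 3.56, 6.83, 8.63 and 9.76 CPM with MmC. It changed by 0.84 ± 0.27 (adjusted p = 0.0196) and 0.76 ± 0.27 (adjusted p = 0.0311), with overlapping groups, and these calls were lost without any of 2 and 4 single libraries, up to 0.0692 without MmC+/GDF11- replicate 3 and 0.102 without MmC+/GDF11+ replicate 4. SAMD9, which restricts poxvirus translation, stood at 91.1, 85.96, 134 and 102 CPM in MmC-/GDF11- and 137, 118, 222 and 198 CPM in MmC+/GDF11-, and, with GDF11, at 167, 97.5, 143 and 101 CPM without MmC and 136, 164, 218 and 201 CPM with MmC. SAMD9 changed by 0.71 ± 0.23 (adjusted p = 0.0187) and 0.50 ± 0.23 (adjusted p = 0.0806), and the first call was lost without any of 3 single libraries, up to 0.0714 without MmC+/GDF11- replicate 3. The first SAMD9 call was also lost without replicate number 4 (0.106) and with no filter on low counts (0.0570). Its neighbour SAMD9L differed by 0.35 ± 0.22 (adjusted p = 0.213) and 0.27 ± 0.22 (adjusted p = 0.338), the first with an adjusted p of 0.0434 when the replicate number was a block. EPSTI1 had 0.35 ± 0.15 (adjusted p = 0.06204) and 0.31 ± 0.15 (adjusted p = 0.0968), and its arms without GDF11 did not overlap. It passed without GDF11 under 8 of the 27 alternatives, among them DESeq2 (0.0462), at least 10 counts in every library (0.0439) and only the libraries compared (0.0309), and under 2 with GDF11.

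In young cells the order of the members by level per length began with IFI6, IFITM3 and ISG15, at 318, 272 and 114 CPM per kb, followed by IFITM2 at 103 and IFITM1 at 48.7. It ended with ISG20, HERC5, IRF9 and IRF7, at 0.572, 0.403, 0.3304 and 0.0777. In MmC+/GDF11- the level was 1097 CPM per kb for IFI6, 270.4 for ISG15, 246 for IFITM3 and 113 for BST2. The length is the union of all annotated exons and understates the level of genes with many rarely used exons, MX1 among them.

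The libraries of a group differed from each other across the set as a whole. For each gene the log2 CPM was centred on its mean over the 16 libraries, and the 43 centred values were averaged per library. Without MmC the averages were -0.45, -0.58, -0.18 and -0.35 in cells without GDF11 and 0.15, -0.36, -0.17 and -0.70 in cells with it. After MmC they were 0.12, 0.14, 0.58 and 0.46 without GDF11 and 0.0016, 0.22, 0.43 and 0.68 with it. The 2 groups without GDF11 were apart, whereas MmC-/GDF11+ replicate 1 lay above MmC+/GDF11+ replicate 1. The spread (SD, n = 4) was 0.17 and 0.23 in young and senescent cells without GDF11, and 0.36 and 0.29 in those with GDF11.

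The same libraries led or trailed in many of the genes. MmC-/GDF11+ replicate 1 was the highest of its group in 33 of the 43 genes, against 26.2% of all tested genes, and replicate 4 of that group was the lowest in 34, against 26.99%. In MmC+/GDF11+ the order was turned, with replicate 4 the highest in 34 genes (26.8% of all genes) and replicate 1 the lowest in 28 (36.9% of all genes). In MmC+/GDF11-, replicate 3 was the highest in 27 genes (13.7% of all genes), and replicates 1 and 2 were the lowest in 22 and 19 (35.2% and 25.7% of all genes). In MmC-/GDF11-, replicate 3 was the highest in 20 genes and replicate 2 the lowest in 25. These genes are not independent of each other, so the counts describe the libraries and carry no test.

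**Figure D3:**
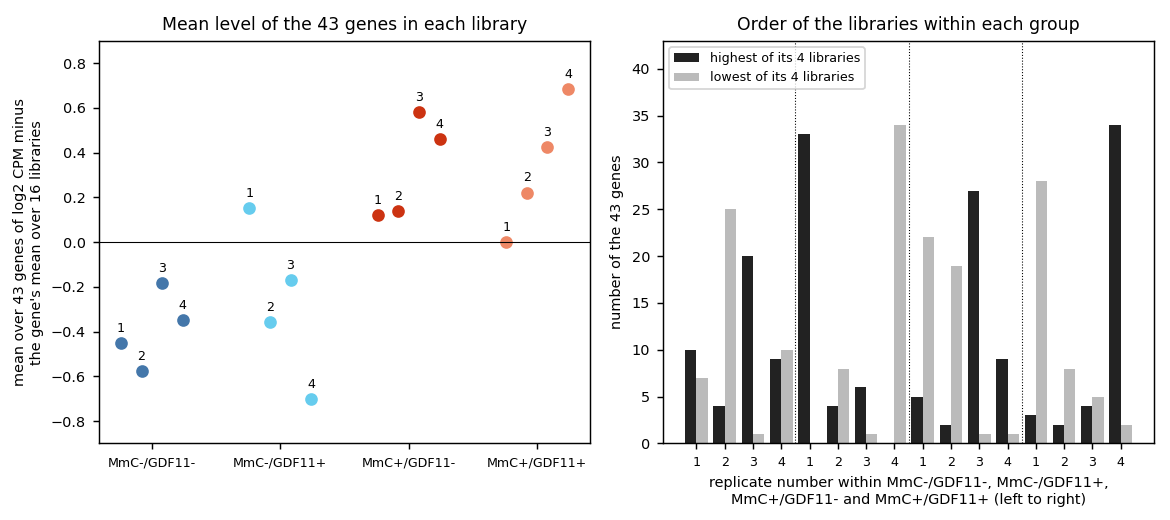
Left, the mean over the 43 genes of the log2 CPM centred on each gene's mean, 1 point per library with its replicate number. Right, the number of the 43 genes in which each library was the highest (black) or the lowest (grey) of its 4 libraries. The MmC+ points are higher on average, and replicates 1 and 4 of the MmC-/GDF11+ and MmC+/GDF11+ groups stand at opposite ends.

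The second comparison asked whether GDF11 moved these genes. None of the 43 genes was called for GDF11 in young MSCs, none for GDF11 in senescent MSCs and none for the interaction, by edgeR's quasi-likelihood test, by DESeq2 or by limma-voom, and the share of all tested genes called by the first was 0% in each. At an unadjusted p under 0.05, 1 of the 43 genes was found in young MSCs, none in senescent MSCs and 1 for the interaction, which was IFI27 both times. Over all tested genes 226, 96 and 172 lay under that value. The median log2 fold change with GDF11 was 0.12 in young and 0.04 in senescent MSCs over the 43 genes, and 34 and 33 of them lay above 0. Over all 19103 tested genes the medians were -0.0043 and -0.0035, and 9241 and 9186 genes lay above 0. The lean of the 43 genes was not shared by all replicate numbers, as given below.

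IFI27 differed with GDF11 by 1.43 ± 0.62 in young (unadjusted p = 0.0373, adjusted p = 1.0000) and by -0.63 ± 0.61 in senescent MSCs. ISG15 differed by 0.36 ± 0.27 in young and by -0.031 ± 0.27 in senescent MSCs. IFI6 differed by 0.30 ± 0.22 and -0.091 ± 0.22, STING1 by -0.053 ± 0.14 and 0.0047 ± 0.14, and CGAS by -0.019 ± 0.17 and 0.035 ± 0.17. These standard errors are those of the fit without a replicate term. With errors of this size, smaller differences in either direction were not detectable in that fit with 4 libraries a group. With the replicate number as a block, no gene of the set was called for GDF11 either.

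When the GDF11+ library of each replicate number was set against the GDF11- library of the same number, the direction changed from number to number. In young MSCs 38, 35, 22 and 4 of the 43 genes were higher with GDF11 in replicates 1 to 4, and in senescent MSCs 18, 30, 3 and 36 were. Over all tested genes the share was close to 50% in each of these 8 pairings, the lowest being 48.7% and the highest 50.2%. The members leaned furthest from an even split in young replicates 1 and 4 and in senescent replicate 3, and not in the same direction.

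**Figure D4:**
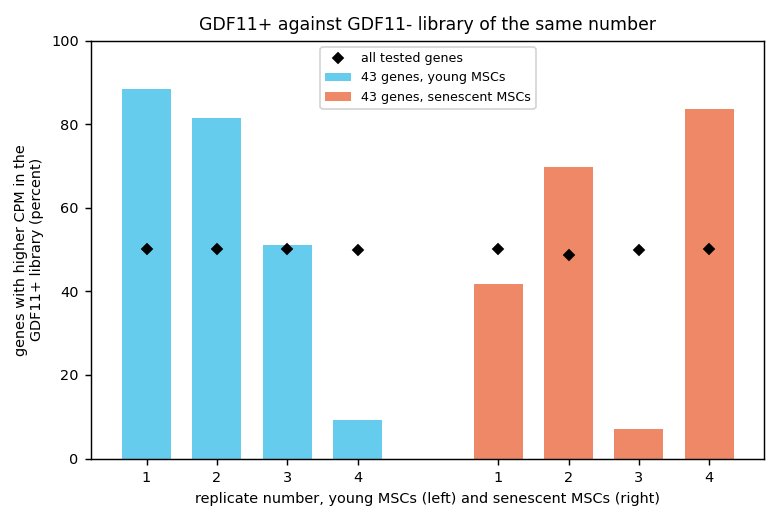
Percent of the 43 genes with a higher CPM in the GDF11+ library than in the GDF11- library of the same replicate number, in young (left bars) and senescent MSCs (right bars). Diamonds give the same percent over all tested genes. The bars run from 88.4% to 9.30% in young MSCs and from 83.7% to 6.98% in senescent MSCs, while all diamonds stay near 50%.

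The pathway around these genes was followed in a wider list of 93 genes, of which 78 were tested. With MmC, 23 of them rose and 17 fell without GDF11, and 24 rose and 15 fell with GDF11, with median log2 fold changes of 0.06 and 0.10. These are 29.5% and 21.8% of the 78 genes without GDF11 and 30.8% and 19.2% with it, beside the 22.9% and 22.4%, and 23.4% and 23.3%, of all tested genes. Without replicate number 3 in all groups the list gave 26 calls without GDF11, against 40. Interferon genes themselves were scarcely counted. IFNB1, which encodes interferon beta, was below the filter, with 2 counts over the MmC-/GDF11- libraries, 4 over MmC-/GDF11+, 19 over MmC+/GDF11- and 32 over MmC+/GDF11+. Per library it stood at 0.01299, 0, 0 and 0.00964 and 0.0139, 0.0268, 0.0128 and 0 CPM without MmC, and at 0.0304, 0.0233, 0.0893 and 0.0691 and 0.0547, 0.0508, 0.0886 and 0.107 CPM with MmC. IFNA1, IFNA2, IFNW1 and IFNL3 had 0 counts in all 16 libraries, and IFNE, the only interferon tested, did not pass in either comparison (-0.25 ± 0.35 (adjusted p = 0.5998) and 0.38 ± 0.36 (adjusted p = 0.413)).

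Of the receptors and JAK-STAT genes, 2 of 9 tested rose and 1 fell without GDF11, and 3 rose and 1 fell with it. Without GDF11 these are 22.2% and 11.1%, beside 22.9% and 22.4% of all tested genes. With GDF11 they are 33.3% and 11.1%, beside 23.4% and 23.3%. IFNAR1, a subunit of the type I interferon receptor, stood at 82.1, 64.9, 78.4 and 80.1 CPM in MmC-/GDF11- and 157, 110.4, 115 and 133 CPM in MmC+/GDF11-, and changed by 0.76 ± 0.12 (adjusted p = 0.000131) and 0.77 ± 0.12 (adjusted p = 0.000112). IFNAR2, the other subunit, stood at 9.47, 7.34, 7.41 and 7.97 CPM in MmC-/GDF11- and 12.04, 9.71, 10.2 and 7.92 CPM in MmC+/GDF11-, and differed by 0.31 ± 0.15 (adjusted p = 0.103) and 0.44 ± 0.15 (adjusted p = 0.0241). IFNGR1 rose (0.48 and 0.46) and the kinase gene TYK2 fell (-0.28 and -0.37) in both.

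Of 15 other sensors and adaptors, 5 rose and 3 fell without GDF11 and 4 rose and 4 fell with it. Without GDF11 these are 33.3% and 20%, beside 22.9% and 22.4% of all tested genes. With GDF11 they are 26.7% each, beside 23.4% and 23.3%. ZNFX1, a helicase that senses viral RNA at mitochondria, rose (1.03 ± 0.16 (adjusted p = 0.000112) and 0.998 ± 0.16 (adjusted p = 0.000144)). AIM2, the DNA sensor that forms an inflammasome, fell (-1.06 ± 0.27 (adjusted p = 0.00476) and -0.94 ± 0.27 (adjusted p = 0.00953)), as did IFI16, another DNA sensor (-0.77 and -0.62), and the adaptor of RNA sensing MAVS (-0.47 and -0.42). RIGI, the sensor of RNA ends, rose without GDF11 (0.95 ± 0.29 (adjusted p = 0.0156)) and did not pass with it (0.73 ± 0.29 (adjusted p = 0.0517)). Of 14 nucleases and negative regulators, 2 rose and 7 fell without GDF11 and 2 rose and 6 fell with it. Beside the same shares of all tested genes, these are 14.3% and 50% without GDF11 and 14.3% and 42.9% with it. TNFAIP3, which encodes the NF-kappaB inhibitor A20, had the largest rise of the wider list without GDF11 (2.48 ± 0.091 (adjusted p = 5.79e-11), and 2.42 ± 0.091 (adjusted p = 8.11e-11) with GDF11). RNASEH2A, the catalytic subunit of the enzyme that removes RNA from DNA hybrids, fell without GDF11 (-1.505 ± 0.41 (adjusted p = 0.00658)) and had -0.98 ± 0.40 (adjusted p = 0.0534) with it, while RNASEH2B and RNASEH2C, its partner subunits, and BANF1, a DNA-binding protein that competes with cGAS for DNA, fell in both. TREX1, the main cytosolic DNA exonuclease, was listed at 0 in all libraries, and all 1448 of its exonic bases lie within ATRIP. On the same strand, THSD8 overlaps 1095 of the 2056 exonic bases of RNASEH2A, and another gene 4471 of the 10345 of RIGI.

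Of 39 other interferon-stimulated genes tested, 14 rose and 6 fell without GDF11, and 15 rose and 4 fell with it. Without GDF11 these are 35.9% and 15.4%, beside 22.9% and 22.4% of all tested genes. With GDF11 they are 38.5% and 10.3%, beside 23.4% and 23.3%. LAMP3, a lysosomal membrane protein, changed by 2.35 ± 0.43 (adjusted p = 0.000367) and 3.24 ± 0.47 (adjusted p = 5.01e-05), and the chemokines CXCL10 and CXCL11 by 2.11 ± 0.64 (adjusted p = 0.0138) and 1.703 ± 0.62 (adjusted p = 0.0332) without GDF11 and by 1.897 ± 0.64 (adjusted p = 0.0228) and 1.81 ± 0.62 (adjusted p = 0.0254) with it. These 3 rested on few counts, with 21, 25 and 19 counts over the MmC-/GDF11- libraries and 111, 114 and 65 over the MmC+/GDF11- libraries. GBP5, a guanylate-binding GTPase, rose from 2.35, 2.56, 3.07 and 3.09 CPM in MmC-/GDF11- to 9.51, 9.998, 13.3 and 10.6 CPM in MmC+/GDF11- (1.97 ± 0.22 (adjusted p = 4.61e-06), and 2.01 ± 0.22 (adjusted p = 4.13e-06) with GDF11). Its relative GBP4 fell (-1.04 ± 0.22 (adjusted p = 0.001196) and -1.05 ± 0.22 (adjusted p = 0.00112)), and LGALS9, which encodes galectin-9, rose without GDF11 (0.96 ± 0.28 (adjusted p = 0.0105)) and had 0.62 ± 0.28 (adjusted p = 0.077003) with it.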

How the data were processed

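Poly(A) RNA of 16 libraries of the MSC line ASC52telo, 4 per group, was sequenced. The authors aligned the reads to GRCh38/hg38 with HISAT2 2.2.1, counted them on GENCODE V38 genes with featureCounts 2.0.1 (versions per the submitters' processing notes) and deposited raw counts per gene, without normalization. The strand setting of the counting and the handling of reads with several alignments are not given in the sources used here. Totals were 71275337 to 144204979 counts per library, and intervals from them would cover counting error only.

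From these counts, edgeR 4.0.16 under R 4.3.3 was used to keep genes (filterByExpr, minimum count 10 and minimum total 15) and to compute TMM scaling factors, and a robust quasi-likelihood model without a replicate term took all 16 libraries and gave each group 1 mean. MmC was contrasted in cells without and cells with GDF11, GDF11 in young cells and senescent ones, and the interaction was tested too, with Benjamini-Hochberg adjustment over 19103 genes at 0.05. The standard error of a log2 fold change was taken as its size divided by the square root of the F statistic. The steps were tested on simulated data with 200 changed genes.

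The members, the wider list and the marker lists were chosen with earlier results of these data known. Every member was counted in its role group, and values per library were given for CGAS, STING1, IRF3, IRF7, ISG15, up to 3 called members per role group with the largest log2 fold change for MmC without GDF11, and the member of each group with the highest level per length. A gene of the wider list is not reported here and enters none of its counts. Of the wider list, IFNB1, IFNAR1, IFNAR2 and up to 10 called genes with the largest change were named by rule. IFNGR1, TYK2, IFI16, MAVS, RIGI, RNASEH2B, RNASEH2C, BANF1 and TREX1 were named after their values were seen, as were the printed promoter stretches.

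The paper lists batch effects from technical issues among its limitations, without saying which libraries they concern. The sources used here do not say whether equal replicate numbers mark cultures handled together. Deviations of same-numbered libraries from their group means correlated across genes with r of at least 0.113 (MmC without GDF11) and 0.448 (GDF11 in senescent MSCs), and these comparisons were treated as paired in the fit with a block. The lowest r was 0.0293 for MmC with GDF11 and 0.0982 for GDF11 in young MSCs, and these comparisons were not taken as paired. This division is narrow. For GDF11 in young MSCs, replicates 1, 2 and 4 had r of 0.504, 0.264 and 0.502. For MmC without GDF11, MmC-/GDF11- replicate 4 against MmC+/GDF11- replicate 3 had 0.151, above the lowest same-numbered value.

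Alternatives were RLE scaling, leaving out the filter or asking for 10 counts in each library, fitting the compared libraries alone, the replicate number as a block, limma-voom (limma 3.58.1), DESeq2 1.42.0, glmTreat with a log2 threshold of 1, and each library, or each replicate number, left out. GENCODE v44 (hg38), which is newer than the annotation behind the counts, gave symbols, positions and exon lengths.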

Additional observations from a re-analysis of the deposited data

Results flagged for a closer look

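Within groups of 4 libraries, 7 of 172 combinations of gene and group had a library further from the others than Dixon's 95% limit allows, and chance alone gives about 1 in 20. BST2 stood at 160.8 CPM in MmC+/GDF11+ replicate 4, with the next library at 109.9 CPM. IFI6 stood at 1414 CPM in the same library, with the next at 856 CPM. TRIM22 stood at 312 CPM in MmC+/GDF11+ replicate 1, with the next at 212 CPM. DTX3L stood at 109.7 CPM in MmC-/GDF11+ replicate 1, with the next at 76.8 CPM. In MmC+/GDF11- replicate 2, TBK1 was low at 28.3 CPM against 36.6 CPM for the next library, and SAMD9L was low at 65.7 CPM against 109.2 CPM. IRF3 stood at 63.1 CPM in MmC-/GDF11- replicate 2, with the next at 48.6 CPM. The cause was not tested.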

How the results depend on the processing

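For MmC without GDF11, 29 of the 43 genes were called, and 29 with RLE scaling, 21 with no filter on low counts, 30 with at least 10 counts in every library, 30 with the replicate number as a block, 27 with limma-voom, 30 with DESeq2 and 30 with only the libraries compared. For MmC with GDF11 the count was 24, and 26, 16, 27, 26, 23, 28 and 24 in the same order. Tested against a log2 fold change of 1, 3 and 1 of the 43 genes and 3 and 3 of the wider list were called. With libraries or replicate numbers left out, the 43 genes gave 17 to 33 calls without and 9 to 34 with GDF11, and the wider list gave 26 to 45 without GDF11. For GDF11 and the interaction no gene of the set was called under any of these alternatives. IFITM2 stayed lower and past the threshold in both comparisons under all of them but the test against a log2 fold change of 1, and STING1 stayed lower but also missed the threshold without replicate numbers 2 or 3, as given beside it. For TBK1 the sign turned with at least 10 counts in every library (0.01 without and 0.02 with GDF11), as did IFITM3 with GDF11 (0.01). IFI27 with GDF11 turned with the block (-0.14) and with limma-voom (-0.09). When libraries were left out the log2 fold change without GDF11 ran from -0.09 to 0.07 for TBK1, -0.19 to 0.07 for IRF9, -0.05 to 0.12 for IFIT5 and -0.01 to 0.15 for DTX3L. With GDF11 it ran from -0.08 to 0.04 for TBK1, -0.11 to 0.04 for IRF3, -0.17 to 0.01 for IFIT5, -0.28 to 0.18 for IFITM3, -0.39 to 0.66 for IFI27 and -0.05 to 0.37 for IFI44, and for GDF11 in senescent MSCs from -0.21 to 0.14 for ISG15. None of these had passed the test. Of genes that did not pass with GDF11, CGAS passed under 6, SAMD9 under 4, IRF7 under 3 and MX2, PARP9 and IFI35 under 2 each of 27 alternatives, the test against a log2 fold change of 1 not counted. The cause of these changes was not tested. The block changed the calls of IRF7, IRF1 and SAMD9L, given beside them, and no other call for MmC without GDF11. For MmC with GDF11, where the numbers were not taken to pair the libraries, it changed 6 calls.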
